A study of Mus musculus with 9 samples.

Results

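The genes described here encode the NF-κB transcription factors and proteins grouped as their inhibitors. They were the 10 rows of the deposited gene table named Nfkb1, Nfkb2, Rel, Rela, Relb, Nfkbia, Nfkbib, Nfkbie, Nfkbiz and Tnfaip3, out of 54532 genes in all. The first 5 encode the DNA-binding subunits, and the other 5 are grouped as inhibitors. Of these, Nfkbiz encodes a nuclear protein that assists NF-κB at some genes, so the group is not made of brakes alone. NF-κB subunits pair with each other and are kept in the cytoplasm by IκB proteins. When IκB kinase marks an IκB for destruction, the freed dimer enters the nucleus and binds κB sites, and among the genes it drives are those of its own inhibitors, so that the signal is limited by feedback. In microglia and macrophages this pathway carries the response to TNF, interleukin-1 and Toll-like receptor ligands.

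The libraries were made from BV2, a mouse microglial cell line that grows without limit after viral transformation, and form 3 groups of 3. The control group (Ctrl) stayed in complete medium with 10% serum. The OGD group was kept in low-glucose medium with 4% serum in a chamber with 4% oxygen, so that oxygen, glucose and serum changed together. In the third group (OGD_A_485, written OGD + A-485 here) A-485, which blocks the acetyltransferase P300, was added to OGD. The dose was 50 μM and the time 24 h in the experiments on cells; neither is restated for the libraries. No group received A-485 without OGD, so an effect of the inhibitor on unstressed cells could not be compared. All groups share 1 cell line, and the labels do not say whether the libraries of a group came from separate cultures, so p-values measure the spread between these libraries, which may be technical.

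Between 12593250 and 16091038 reads lay on genes in each library. Of 12 microglial and macrophage markers, 10 had a mean of at least 1 FPKM in control, and the defining marker P2ry12 was at 0.298 FPKM or less in every library. Of 17 markers of neurons, astrocytes, oligodendrocytes, endothelium and fibroblasts, none passed 1.25 FPKM in any library and 4 were at 0 in all of them. FPKM is the number of fragments scaled to gene length and library size. All 10 genes passed the filter on low values (a mean of at least 0.2 FPKM) and were among the 16123 genes tested. Calls required p under 0.01 from limma before adjustment and a log2 fold change beyond 0.5 in either direction, on the log2(FPKM + 0.1) scale.

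OGD raised 3 genes of the inhibitor group, Tnfaip3, Nfkbia and Nfkbiz, and 1 subunit gene, Relb, and lowered none. The protein of Nfkbiz also assists NF-κB. A-485 under OGD moved the inhibitors in opposite directions. Tnfaip3 rose further, while Nfkbia and Nfkbib fell together with the subunit genes Nfkb2 and Relb. Against control, OGD called 4 of the 10 genes higher and 0 lower, where 11.2% of all genes tested were called higher and 9.81% lower. With A-485 against OGD, 1 was called higher and 4 lower (12.2% and 13.4% of all genes). With OGD + A-485 against control, 2 were called higher, Rela and Tnfaip3, and 0 lower (17.0% and 16.6% of all genes). The median log2 fold change of the 10 genes was 0.28 with OGD and -0.21 with A-485, against 0.01 for all genes tested in both comparisons. The last 2 comparisons each share libraries with the first, so the values stand side by side and are not independent of each other. In RNA from whole cultures, a change in every cell and a change in some of the cells cannot be told apart.

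**Figure D1:**
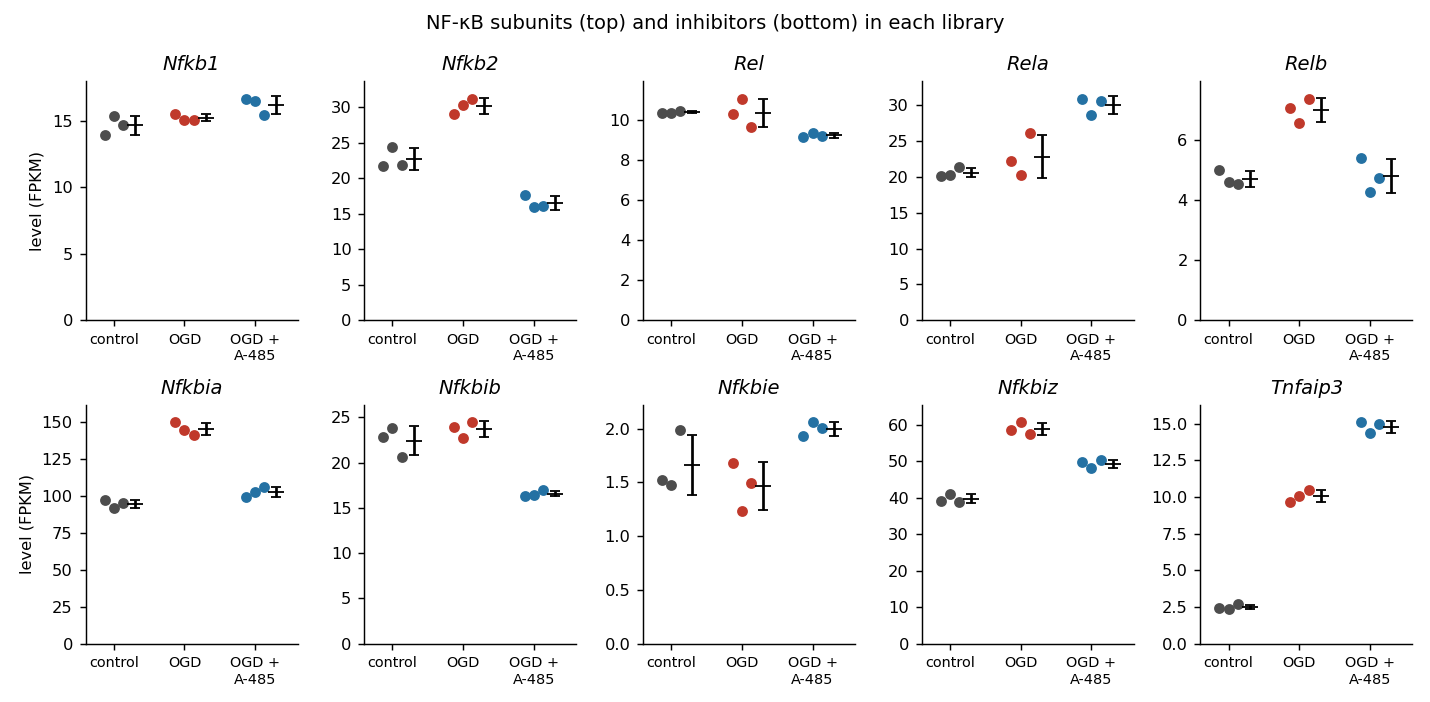
Level (FPKM, axes from 0) of each subunit gene (top) and inhibitor gene (bottom) in the 9 libraries. Points are libraries and the bars beside them are the mean and SD of 3. Nfkbia and Relb are highest in OGD, Nfkb2 is lowest in OGD + A-485, and Tnfaip3 is higher in each group from left to right.

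Rela encodes p65, the subunit with the main transactivation domain (ENSMUSG00000024927, chromosome 19, 5637483 to 5648130, plus strand, GRCm38). Its level was 20.2, 20.3 and 21.4 FPKM in the control libraries, 22.2, 20.3 and 26.1 in OGD, and 30.9, 28.6 and 30.6 in OGD + A-485. The OGD libraries overlapped the control libraries, and every OGD + A-485 library was above all the others. The log2 fold change was 0.14 with OGD (95% interval -0.05 to 0.33, limma adjusted p = 0.205) and 0.40 with A-485 (95% interval 0.21 to 0.59, limma adjusted p = 0.00335), below the threshold on size. Against control, OGD + A-485 was higher by 0.54 (standard error 0.08, limma adjusted p = 0.000456). The call was lost under quantile normalization (0.47), with libraries scaled to their totals (0.43) and with the median of the 50 nearest tested genes removed (0.39).

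Relb encodes the subunit that partners p52 in the alternative, slower NF-κB pathway (ENSMUSG00000002983, chromosome 7, 19606217 to 19629438, minus strand). It stood at 5.01, 4.61 and 4.53 FPKM in the control libraries, at 7.08, 6.58 and 7.39 in OGD, and at 5.41, 4.27 and 4.75 in OGD + A-485. All OGD libraries were above all libraries of both other groups, and those 2 groups overlapped. OGD raised Relb by 0.56 on the log2 scale (standard error 0.09, limma adjusted p = 0.00102), and A-485 lowered it by -0.54 (standard error 0.09, limma adjusted p = 0.00111). OGD + A-485 against control gave 0.02 with a 95% interval from -0.19 to 0.23. Without OGD + A-485 replicate 2, the lowest of its group, the fall was -0.46 and under the threshold on size, and with a pseudocount of 1 the rise was 0.49 and the fall -0.47. With the median of its 50 neighbours removed, the rise was 0.35 and not called.

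Nfkb2 encodes p100, the precursor of p52, which also holds other subunits in the cytoplasm (ENSMUSG00000025225, chromosome 19, 46304737 to 46312090, plus strand). Its promoter is shown because it holds 3 matches to the κB motif, the most among the 7 of these genes with a promoter entry. The motif is a run of 10 bases that reads GG, purines, any bases, pyrimidines and CC, and equals its own reverse complement. The sequences are from RefSeq (GRCm38.p6), and capitals mark the full matches, here and below. Runs that depart from the motif by a base or in length were not searched for. Lower case therefore does not mean that no κB site is there. The 2 stretches lie on chr19:46304693-46304713 and chr19:46304721-46304736, at positions -44 to -24 and -16 to -1 from the RefSeq start. The first holds 2 matches that overlap.
Nfkb2, upstream: gtcacGGGAATTCCCCccctc
Nfkb2, at the start: cgaaaGGGGCTTTCCc

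Nfkb2 was at 21.7, 24.4 and 21.9 FPKM in the control libraries, at 28.9, 30.2 and 31.2 in OGD, and at 17.6, 15.9 and 16.03 in OGD + A-485. No library of any group overlapped another group, with OGD on top and OGD + A-485 at the bottom. The log2 fold change with OGD was 0.41 (standard error 0.06, limma adjusted p = 0.000577), a difference larger than the spread between libraries but below the threshold on size. With A-485 it was -0.86 (standard error 0.06, limma adjusted p = 5.72e-06), the largest fall among the 10 genes, and against control -0.45 (limma adjusted p = 0.000203). The 50 nearest tested genes on chromosome 19 had a median of -0.13 with OGD, -0.33 with A-485 and -0.49 in OGD + A-485 against control. With that median removed, the rise with OGD was 0.54 and called, the fall with A-485 was -0.53 and still called, and the difference from control was 0.04. Psd on the opposite strand shares 299 exonic bases with Nfkb2 (6.52% of its exonic bases in GENCODE M21) and had means of 2.38, 2.04 and 1.61 FPKM in the 3 groups. The deposited gene model of Nfkb2 has 3289 bases, against 4584 exonic bases in GENCODE M21. Whether the shared bases were counted for Nfkb2 is therefore not known. The sources used here do not state whether counting used the strand.

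Nfkb1 encodes p105, the precursor of p50 (ENSMUSG00000028163, chromosome 3, 135584655 to 135691547, minus strand), and Rel encodes c-Rel, the subunit best known from lymphoid and myeloid cells (ENSMUSG00000020275, chromosome 11, 23736847 to 23770970, minus strand). Nfkb1 was at 13.9, 15.3 and 14.7 FPKM in control, 15.5, 15.0 and 15.1 in OGD and 16.6, 16.5 and 15.4 in OGD + A-485. Rel was at 10.3, 10.3 and 10.4 FPKM in control, 10.3, 11.04 and 9.65 in OGD and 9.12, 9.34 and 9.17 in OGD + A-485. For both genes the OGD libraries overlapped the control libraries. The log2 fold change of Nfkb1 with OGD was 0.06 (95% interval -0.06 to 0.17) and that of Rel -0.01 (95% interval -0.13 to 0.11), so that changes beyond those bounds lay outside the intervals. With A-485, Nfkb1 gave 0.09 (95% interval -0.02 to 0.20) and Rel -0.16 (limma adjusted p = 0.0319), and neither was called.

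Nfkbia encodes IκBα, the inhibitor that NF-κB induces most directly in its own feedback loop (ENSMUSG00000021025, chromosome 12, 55489410 to 55492647, minus strand). The 250 bases before its RefSeq start (chr12:55492648-55492897, minus strand, GRCm38.p6) are shown because the gene rose with OGD and fell with A-485. They hold 1 match to the κB motif, in capitals, at positions -29 to -20.
Nfkbia: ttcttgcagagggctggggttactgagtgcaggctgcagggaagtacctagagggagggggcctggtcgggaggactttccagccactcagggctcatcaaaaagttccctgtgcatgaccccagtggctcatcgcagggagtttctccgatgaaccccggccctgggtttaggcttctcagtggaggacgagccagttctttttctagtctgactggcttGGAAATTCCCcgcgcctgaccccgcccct

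Nfkbia was the most abundant of the 10 genes in every group. The control libraries held 97.2, 92.1 and 95.2 FPKM, the OGD libraries 149.9, 145.0 and 141.6, and the OGD + A-485 libraries 99.5, 102.6 and 106.1. Every OGD library was above every other library, and every OGD + A-485 library was above every control library by a small margin. OGD raised Nfkbia by 0.62 (standard error 0.04, limma adjusted p = 5.54e-06). A-485 lowered it by -0.50 (standard error 0.04, limma adjusted p = 1.13e-05), just past the threshold on size. What remained above control was 0.12 (95% interval 0.02 to 0.21, limma adjusted p = 0.0342), which quantile normalization turned to -0.02. The fall was -0.48 without OGD replicate 1, also -0.48 without OGD + A-485 replicate 1, and -0.39 after subtracting the median of its 50 neighbours, and in none of these was it past the threshold on size. Nor was it with a pseudocount of 1, and the rise with OGD, 0.497 with the neighbours' median removed, was then also not called.

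Nfkbib encodes IκBβ, which is resynthesized less readily than IκBα (ENSMUSG00000030595, chromosome 7, 28758251 to 28767512, minus strand). It was at 22.8, 23.8 and 20.6 FPKM in the control libraries, at 23.98, 22.7 and 24.5 in OGD, and at 16.4, 16.4 and 16.9 in OGD + A-485. Control and OGD overlapped, and all OGD + A-485 libraries were below both. The log2 fold change was 0.08 with OGD (95% interval -0.04 to 0.21) and -0.51 with A-485 (standard error 0.06, limma adjusted p = 7.46e-05). Against control it was -0.43 in OGD + A-485 (limma adjusted p = 0.000162), under the threshold on size. The fall with A-485 was no longer called without OGD replicate 3 (-0.49), with a pseudocount of 1 (-0.49) or with the median of its 50 neighbours removed (-0.45). Sirt2, on the opposite strand, shares 42 exonic bases with Nfkbib (1.94%) and had means of 12.4 ± 0.218, 20.1 ± 1.03 and 16.7 ± 0.899 FPKM in the 3 groups (SD, n = 3). Ccer2, also on the opposite strand, shares 314 bases (14.5%) and was listed at 0 in all control and OGD libraries, with a mean of 0.126 FPKM in OGD + A-485.

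Nfkbie encodes IκBε (ENSMUSG00000023947, chromosome 17, 45555703 to 45563169, plus strand) and was the least abundant of the 10 genes, with 49 to 99 reads per library. It was at 1.52, 1.48 and 1.99 FPKM in control, 1.68, 1.24 and 1.49 in OGD and 1.93, 2.06 and 2.004 in OGD + A-485. OGD overlapped control, and OGD + A-485 lay above OGD. Neither difference was called. The log2 fold change was -0.17 with OGD (95% interval -0.51 to 0.18) and 0.43 with A-485 (95% interval 0.09 to 0.77, limma adjusted p = 0.0404). With these few reads, a fall of 0.51 with OGD was still within the interval.

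Nfkbiz encodes IκBζ, a nuclear IκB protein that assists NF-κB at secondary response genes and does not keep dimers in the cytoplasm (ENSMUSG00000035356, chromosome 16, 55811375 to 55838899, minus strand). It was at 39.2, 41.1 and 38.8 FPKM in the control libraries, at 58.5, 60.6 and 57.4 in OGD, and at 49.7, 48.0 and 50.2 in OGD + A-485. The 3 groups did not overlap, with OGD + A-485 between the others. OGD raised Nfkbiz by 0.57 (standard error 0.04, limma adjusted p = 6.33e-06). The log2 fold change with A-485 was -0.25 (limma adjusted p = 0.000478) and that of OGD + A-485 against control 0.31 (limma adjusted p = 9.9e-05). Both differences were larger than the spread between libraries, and neither passed the threshold on size.

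Tnfaip3 encodes A20, an enzyme that edits ubiquitin chains on the signalling proteins upstream of IκB kinase and so shuts the pathway off (ENSMUSG00000019850, chromosome 10, 19000910 to 19015657, minus strand). Positions -137 to -1 from its RefSeq start (chr10:19015411-19015547, minus strand, GRCm38.p6) are shown. They lie outside its exons in GENCODE M21 but inside the span of the gene given above, which begins further upstream than the RefSeq start. Among the 7 genes with a promoter entry, Tnfaip3 and Rel came after Nfkb2 with 2 matches each, and those of Tnfaip3 do not overlap. The stretch shown holds 2 separate matches to the κB motif, in capitals, at positions -125 to -116 and -12 to -3.
Tnfaip3: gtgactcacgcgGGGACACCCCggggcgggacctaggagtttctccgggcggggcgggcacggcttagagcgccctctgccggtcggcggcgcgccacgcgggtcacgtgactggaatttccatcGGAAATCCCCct

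Tnfaip3 was at 2.46, 2.37 and 2.67 FPKM in the control libraries, at 9.64, 10.1 and 10.5 in OGD, and at 15.1, 14.3 and 14.9 in OGD + A-485. No groups overlapped. OGD raised it 3.91-fold, a log2 fold change of 1.97 (standard error 0.06, limma adjusted p = 2.39e-07). A-485 raised it by a further 0.55 (standard error 0.06, limma adjusted p = 7.15e-05), to 5.73-fold above control (log2 fold change 2.52, limma adjusted p = 1.19e-08). It rested on 237 to 313 reads per control library and on 1557 to 1636 in OGD + A-485. With libraries scaled to their totals, the further rise was 0.49 and under the threshold on size.

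**Figure D2:**
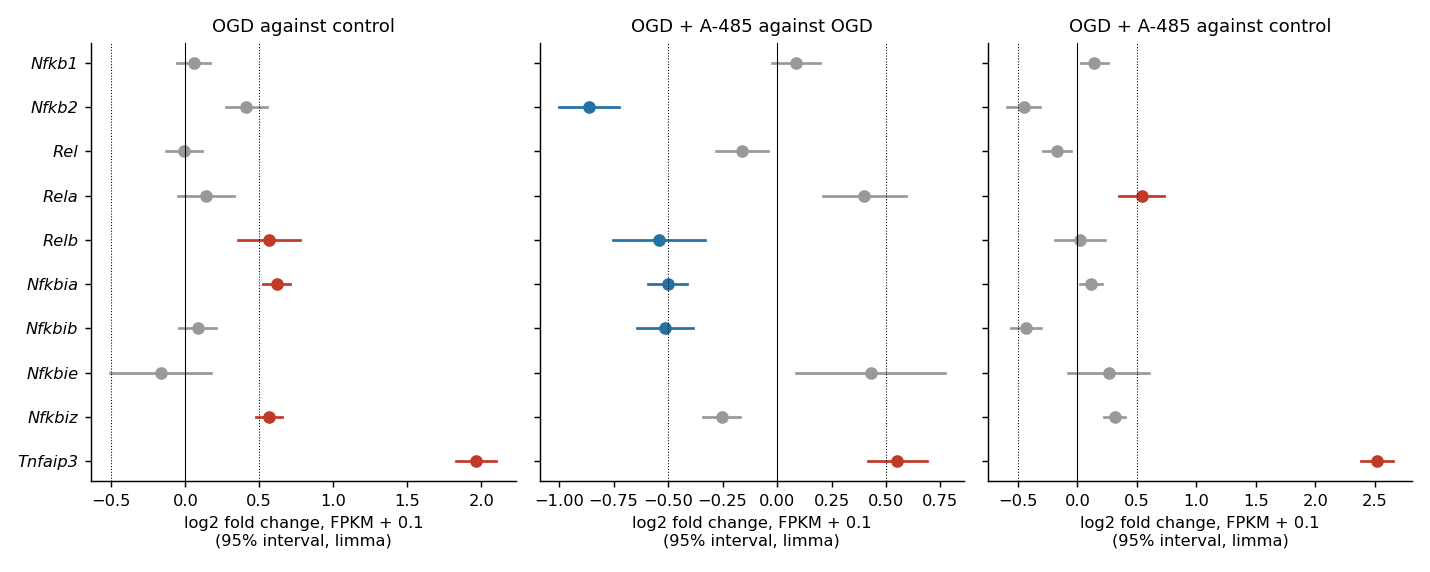
Log2 fold change (log2(FPKM + 0.1) scale) with its 95% interval from limma for each gene in the 3 comparisons. Red marks genes called higher, blue genes called lower and grey genes not called, dotted lines mark the threshold on size, and the 3 horizontal axes differ. Tnfaip3 lies farthest right in the first and last comparison, and Nfkb2 farthest left in the second.

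Counted by overlap alone, 5 of the 10 genes had every OGD library above every control library and 0 had every one below (28.0% and 27.5% of all genes tested). With A-485 against OGD, 3 genes were separated upwards (Rela, Nfkbie and Tnfaip3) and 6 downwards (28.5% and 28.3% of all genes). In OGD + A-485 against control, 5 genes were separated upwards and 3 downwards (31.8% and 32.0% of all genes).

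The order of the genes by level, in FPKM and so per length, was led by Nfkbia and then Nfkbiz in all 3 groups, with no overlap between them or with the next gene. In control Nfkb2, Nfkbib and Rela came next at 22.7, 22.4 and 20.6 FPKM, and neighbours in that order overlapped. In OGD, Nfkb2 at 30.1 ± 1.11 stood apart above Nfkbib and Rela, which overlapped (SD, n = 3). In OGD + A-485, Rela came next at 30.1 ± 1.26, apart from Nfkbib, Nfkb2 and Nfkb1 at 16.6, 16.5 and 16.2 FPKM, which followed each other with overlap. Tnfaip3 was ninth in control, eighth in OGD, where it overlapped Rel at 10.3 FPKM, and seventh in OGD + A-485, apart from its neighbours. Nfkbie was last in every group. By its mean, Nfkbia lay above 97.4%, 98.4% and 97.3% of the genes tested in control, OGD and OGD + A-485, and Tnfaip3 above 40.5%, 67.8% and 76.1%.

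Within a library, the ratio of 2 levels does not depend on the scaling between libraries. These pairs were picked after their levels had been seen. The ratio of Nfkbia to Rela was 4.82, 4.53 and 4.46 in control, 6.76, 7.14 and 5.43 in OGD, and 3.21, 3.58 and 3.46 in OGD + A-485. The ratio of Tnfaip3 to Nfkbia was 0.0264 ± 0.00152 in control, 0.0692 ± 0.00476 under OGD and 0.144 ± 0.00655 once A-485 was present (SD, n = 3). The first ratio was thus lowest and the second highest in OGD + A-485. The ratio of Nfkb2 to Nfkb1 went from 1.55 ± 0.051 to 1.98 ± 0.105 and then to 1.02 ± 0.0494, and that of Relb to Rela from 0.229 ± 0.0182 to 0.309 ± 0.0223 and then to 0.160 ± 0.0134 (SD, n = 3). For each ratio no 2 groups overlapped, and the two-sided exact permutation test gave p = 0.1 in every comparison, the smallest that 3 against 3 libraries allow.

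**Figure D3:**
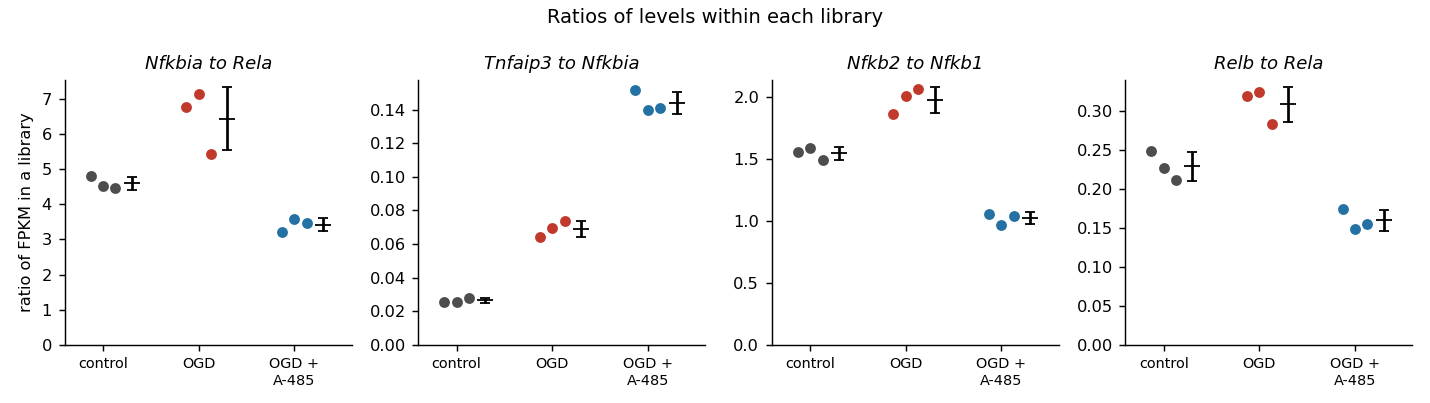
Ratio of the FPKM of 2 genes within each library (axes from 0) for 4 pairs. Points are libraries and the bars beside them are the mean and SD of 3. Nfkbia to Rela, Nfkb2 to Nfkb1 and Relb to Rela are lowest in OGD + A-485, and Tnfaip3 to Nfkbia is highest there.

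Of the 10 genes, 7 had an entry among the RefSeq promoters used, and Nfkb1, Relb and Nfkbiz had none. In the 250 bases before the outermost RefSeq start, 5 of the 7 held at least 1 match to the κB motif, against 9.30% of the 27025 such windows of all genes. Besides the matches printed above, Rel held GGGAAATCCC at positions -92 to -83, with a second match shifted by 1 base, and Nfkbie held GGGGGATTCC at positions -106 to -97. Rela and Nfkbib held none in this window. For Nfkbib the window (chr7:28766645-28766894) lies inside the gene, which runs to 28767512 on the minus strand. The bases before its annotated end were therefore not searched. The matches of Nfkb2 and Tnfaip3 also lie within annotated gene sequence, as described above. Of the 5 genes with a match, Nfkbia and Tnfaip3 were called higher with OGD, and Nfkb2, Rel and Nfkbie were not. Neither of the 2 without a match was called, and 11.2% of all genes tested were called higher. Relb and Nfkbiz, also called higher with OGD, had no entry. Matches can be compared with calls in these 7 genes only, too few to relate a match to a call. A match is a description of the letters, and binding was not measured in these libraries.

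**Figure D4:**
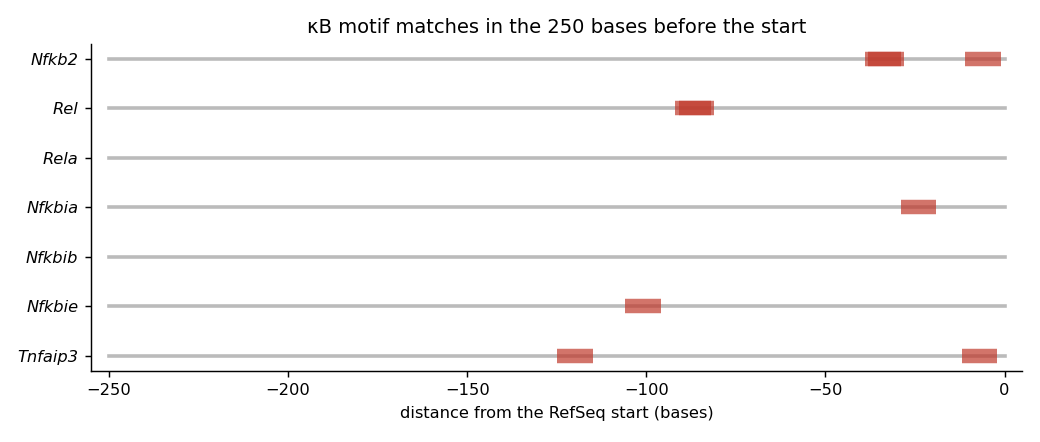
Position of matches to the κB motif (red) in the 250 bases before the RefSeq start (grey lines, distance in bases) of the 7 genes with an entry. The matches of Nfkb2, Nfkbia and Tnfaip3 closest to the start begin at -11, -29 and -12, and Rela and Nfkbib hold none.

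Other genes of the pathway were taken from a list of 50 partners written from general knowledge, all of which were tested. OGD raised 9 and lowered 4 of them, 18% and 8% against 11.2% and 9.81% of all genes tested. A-485 under OGD raised 7 and lowered 5, 14% and 10%, shares close to the 12.2% and 13.4% of all genes. Their median log2 fold change was 0.12 and 0.10, against 0.01 for all genes. The classes within the list are small, and their counts are read against the same shares of all genes. Of the 11 kinases, OGD raised 1 and lowered 0, and A-485 raised 0 and lowered 2 (9.09% higher with OGD and 18.2% lower with A-485). The 2 that fell were the catalytic subunits of IκB kinase. Chuk, for IKKα, was at 13.7 ± 0.601 FPKM in control, 12.9 ± 0.773 under OGD and 7.45 ± 0.476 once A-485 was present (SD, n = 3), a log2 fold change with A-485 of -0.78 (limma adjusted p = 1.48e-05), or -0.41 and not called with the median of its 50 neighbours removed. Ikbkb, for IKKβ, was at 6.08 ± 0.0634, 8.28 ± 0.159 and 5.14 ± 0.285 FPKM, with log2 fold changes of 0.44 with OGD (limma adjusted p = 0.000205, under the threshold on size) and -0.68 with A-485 (limma adjusted p = 1.23e-05).

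Of the 21 adaptors and ubiquitin ligases, OGD raised 5 and lowered 1 (23.8% and 4.76%), and A-485 raised 3 and lowered 3 (14.3% each, close to all genes). Traf1, an adaptor of TNF receptors and a known NF-κB target, had 2.11 ± 0.168 FPKM in control, then 4.39 ± 0.151 in OGD, and with A-485 had 1.17 ± 0.0925 (SD, n = 3). Its log2 fold changes were 1.03 and -1.83. Myd88, the adaptor of most Toll-like receptors and of the interleukin-1 receptor, fell from 31.8 ± 0.706 to 15.6 ± 0.809 FPKM with OGD (log2 fold change -1.03, limma adjusted p = 1.83e-06), while Ticam1, which encodes the adaptor TRIF, rose by 0.87 (limma adjusted p = 7.28e-05). Irak3 encodes IRAK-M, a brake on Toll-like receptor signalling in macrophages. It was nearly silent in control and OGD, at 0.165 ± 0.0401 and 0.103 ± 0.0648 FPKM, from 2 to 12 reads per library. It stood at 15.7 ± 0.336 FPKM in OGD + A-485, from 822 to 932 reads (SD, n = 3).

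Of the 18 genes of feedback and termination, OGD raised 3 and lowered 3 (16.7% each), and A-485 raised 4 and lowered 0 (22.2% higher). Tnip3 encodes an A20-binding protein and moved as Tnfaip3 did, with 0.136 ± 0.0486 FPKM in control, 1.20 ± 0.129 after OGD and 5.66 ± 0.139 when A-485 was added (SD, n = 3). The log2 fold changes were 2.47 and 2.16. The list held 2 further nuclear IκB proteins, and neither followed Nfkbiz. Nfkbid, for IκBNS, fell from 17.1 ± 1.01 to 8.66 ± 0.722 FPKM with OGD and stood at 16.8 ± 0.754 in OGD + A-485, log2 fold changes of -0.97 (limma adjusted p = 9.89e-06) and 0.95 (limma adjusted p = 7.6e-06). Bcl3 fell from 12.1 ± 0.626 to 6.26 ± 0.672 FPKM with OGD (log2 fold change -0.94, limma adjusted p = 2.4e-05) and stood at 6.997 ± 0.268 with A-485 (log2 fold change 0.16, limma adjusted p = 0.125).

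**Figure D5:**
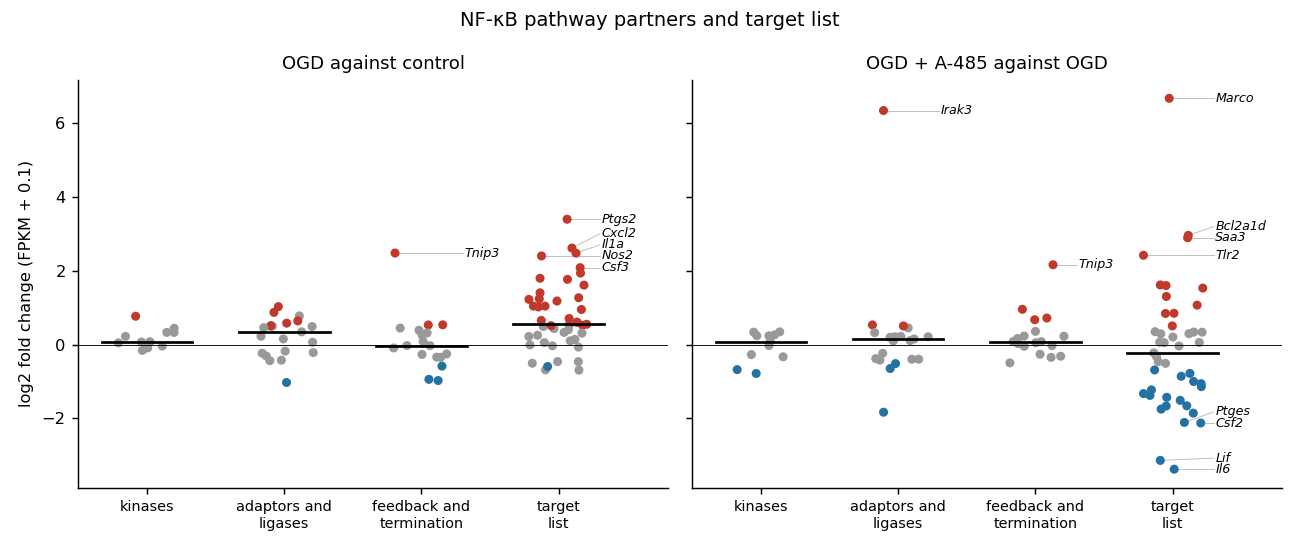
Log2 fold change (log2(FPKM + 0.1) scale) of the tested genes of the partner list, by class, and of the target list, with OGD against control (left) and A-485 under OGD against OGD (right). Points are genes, red called higher, blue called lower and grey not called, and black lines are medians. The median of the target list lies at 0.56 on the left and -0.23 on the right.

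A list of 52 genes widely described as NF-κB targets in macrophages, also from general knowledge, had 45 genes tested. Both lists were chosen with earlier results of these data known. The target list holds Tnf, Il6, Csf2, Ccl2 and Nos2, which the paper had reported as raised by OGD. Its shares are therefore a description and not an independent test. OGD raised 25 of the 45 tested targets and lowered 1, 55.6% higher against 11.2% of all genes. A-485 under OGD raised 12 and lowered 19, 26.7% and 42.2% against 12.2% and 13.4% of all genes. In OGD + A-485 against control, 25 were higher and 8 lower, 55.6% and 17.8% against 17.0% and 16.6% of all genes, so that the share of lower genes was close to that of all genes. The 3 genes with the largest rise with OGD were Ptgs2, which encodes cyclooxygenase-2, the chemokine gene Cxcl2 and the cytokine gene Il1a, and they differed under A-485. Ptgs2 went from 17.4 ± 0.160 to 184.6 ± 29.9 FPKM with OGD and stood at 64.3 ± 2.97 in OGD + A-485 (log2 fold change -1.51), Cxcl2 was at 58.7 ± 7.24 FPKM in OGD and 47.2 ± 9.72 in OGD + A-485 and was not called, and Il1a rose from 6.54 ± 1.39 to 19.9 ± 1.15 FPKM (SD, n = 3). The largest falls with A-485 were in the cytokine genes Il6 (-3.37), Lif (-3.13) and Csf2 (-2.12). In OGD + A-485 these genes had 11 to 20, 21 to 35 and 9 to 14 reads per library. With a pseudocount of 1 their log2 fold changes were -2.11, -1.92 and -1.48.

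The 3 largest rises with A-485 in the target list were in genes not called with OGD. Marco, a scavenger receptor gene, was at 0.0671 ± 0.0612 FPKM in OGD, from 0 to 3 reads per library, and at 15.96 ± 1.10 in OGD + A-485, from 448 to 468 reads. Saa3, an acute-phase gene, went from 1.12 ± 0.466 to 8.57 ± 1.04 FPKM. Bcl2a1d, for an anti-apoptotic protein, went from 1.22 ± 0.271 to 10.01 ± 1.39 FPKM (SD, n = 3) and has near-identical copies, so its reads may be split among them. Tlr2, which encodes a receptor upstream of NF-κB, was the 1 target called lower with OGD, from 13.4 ± 0.223 to 8.84 ± 0.350 FPKM, and reached 47.5 ± 0.399 in OGD + A-485 (SD, n = 3). Spi1 and Csf1r, of the macrophage markers, were also higher in OGD + A-485, at 97.9 and 130.6 FPKM against 38.5 and 44.6 in OGD, and the summed level of the 12 markers ran from 915 to 959 FPKM against 537 to 562. Their part in the result was not tested.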

How the data were processed

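RNA of 9 BV2 libraries was measured, 3 for each of control, OGD and OGD + A-485, and library titles gave the groups. The authors discarded poor, ambiguous and adapter-bearing reads, used featureCounts for reads per gene and deposited FPKM, made from those and the gene length. The builds named per the labels are GRCm38 and mm10, and the aligner is not given in the sources used here. FPKM times gene length gave whole reads (within 0.01) for 100% of values above 0.

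The deposited FPKM were used as log2(FPKM + 0.1) where a gene's mean reached 0.2 FPKM and fitted with limma 3.58.1 in R 4.3.3 over all libraries, with a trended prior variance and Benjamini-Hochberg adjustment. The thresholds on p and size are those the authors set. Fold changes on this scale understate those of low genes. The genes, lists and tests were chosen with earlier results of these data known. Besides the 10 genes, the text names the 3 largest rises and falls of each list among called genes of at least 1 FPKM without overlap. Spi1 and Csf1r were named after their values were seen. Bases before the RefSeq start were printed for Nfkbia and the 2 genes with most κB matches, a tie with Rel going to the gene whose matches do not overlap. The fit was tested on simulated data. No replicate pair was within sampling noise (chi-square divided by its degrees of freedom 2.8 to 5.73). Python 3.11.15 was used for the remaining steps. A gene that the rule for similar patterns selects is not reported here.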

Additional observations from a re-analysis of the deposited data

How the results depend on the processing

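The calls with the smallest margins were those of size, since 4 of the 5 genes called with A-485 changed by 0.50 to 0.55. With a pseudocount of 1, 1 of the 10 genes was called lower with A-485 against OGD in place of 4, and with the median of neighbouring genes removed 2 were. Called higher with A-485 against OGD were 2 genes under quantile normalization and 0 with libraries scaled to their totals, in place of 1. Against control, 1 gene was called higher in OGD + A-485 under each of these 2 scalings and with the neighbours' median removed, in place of 2, and 2 were called lower with library totals, in place of 0. That scaling called 9 partners higher in place of 14, and of all its calls against control 40.2% were higher, against 50.6%. Of the target list, 2 genes in place of 1 were called lower with OGD under quantile normalization, library totals, the fit of only the groups compared, no trend, limma-voom on recovered reads and an adjusted p under 0.05, and 1 to 2 with each library left out. Signs turned for differences that were not called as reported. These were Rel with OGD (0.012 under quantile normalization, and from -0.059 to 0.037 with a library left out), Nfkbia against control (-0.017 under quantile normalization), and Relb against control (-0.090 with library totals and -0.087 with neighbours removed, from -0.064 to 0.10 with a library left out). With neighbours removed they also were Nfkb1 (-0.038 with OGD, -0.018 with A-485 and -0.11 against control), Nfkbib with OGD (-0.00027) and Nfkb2 against control (0.040). With a library left out they were Nfkbid against control (-0.070 to 0.016) and Bcl2a1d with OGD (-0.23 to 0.20). The cause was not tested.

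Sharing a replicate number did not make libraries alike (correlation across genes from -0.05 to 0.04), so no pairing by number was visible in the levels. With so few libraries per group, this cannot show whether those that share a number were grown or prepared together. With the replicate number as a block, 4 of the 10 genes were called higher with OGD, 1 higher and 4 lower with A-485, and 2 higher against control, and of the genes named Il6 with OGD gained a call (0.61). Depth limits Nfkbie most among the 10 genes, with at most 99 reads per library. Among the other genes named it limits Csf2, with at most 51, and Marco and Irak3 in control and OGD, with at most 12. Few reads also lay on Bcl2a1d in control and OGD (10 to 23) and on Saa3 in OGD (24 to 54). The same holds for Il6 and Lif in OGD + A-485 (11 to 35) and for Tnip3 and Il1a in control (14 to 33).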

Other observations

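Relb, Nfkbia and Tnfaip3 were called in both main comparisons, and the 10026 other protein-coding genes whose mean reached 1 FPKM were searched for those with the most similar levels over the 9 libraries (Pearson's r of log2(FPKM + 0.1), as a description without a test). The libraries form 3 groups, so r mostly reflects the group means. Among the closest to Nfkbia were the stress gene Nupr1 (r = 0.996), with means of 4.01, 7.14 and 4.58 FPKM in control, OGD and OGD + A-485, and the cytokine gene Il23a (0.987). Closest to Tnfaip3 were Tnfsf13b (0.999), which encodes the B-cell survival factor BAFF and had means of 1.63, 6.03 and 8.47 FPKM, Mtss1 (0.998) and Vim (0.998), for the intermediate filament protein vimentin, with means of 209.8, 624.6 and 870.4 FPKM. Closest to Relb were Sema6b (0.991), Nlgn2 (0.989) and Neurl4 (0.981).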
